A study of Mus musculus with 24 samples.

Results

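Hepatocyte growth factor and the fibroblast growth factors are described here in pancreatic stellate cells (PSC), as 8 genes chosen by name out of the 53801 genes listed: the ligands Hgf, Fgf2, Fgf7, Fgf10 and Fgf18, the HGF receptor Met and the FGF receptors Fgfr1 and Fgfr2. The rule was a list of names, drawn up with earlier results of these data known. All 8 passed the filter on low values in each comparison. PSC reside in the pancreas and become fibroblast-like when activated. They were isolated from pancreata of wild-type C57BL/6J mice, 4 to 10 of which were pooled per isolation, at an age of 7 to 10 weeks and with an equal ratio of the sexes. PSC at passage 1 to 2 were mono-cultured (control) or grown across a membrane with 1 µm pores from KPC cells, a murine pancreatic cancer line from a female mouse whose Cre-activated alleles include mutant Trp53. In standard co-culture the KPC cells grew on the bottom of the well. In inverse co-culture the KPC cells were seeded first, below the membrane on which the PSC lay, so that the time both cell types spent together reached 96 h, against 72 h for standard co-culture. From time zero all cultures were in Advanced DMEM/F-12 with 10% FBS, whereas the medium before that differed between the models. RNA of the PSC was sequenced after 24 h and 72 h. Each of the 8 groups had 3 libraries, and each co-culture had its own control.

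HGF is a ligand that mesenchymal cells release in an inactive form. Proteases cut it into the form that activates MET, a receptor tyrosine kinase found mainly on epithelial cells. FGF7 and FGF10 are mesenchymal ligands of the IIIb splice form of FGFR2, which is typical of epithelium, whereas FGF2 binds several receptors and FGF18 prefers the mesenchymal IIIc forms. These paracrine FGF bind their receptors together with heparan sulfate, and signalling through the MAP kinase pathway switches on the transcription factors Etv4 and Etv5 and inhibitors of that pathway such as Spry2 and Dusp6. Values per gene do not separate splice forms.

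The libraries held between 15932737 and 24798761 counted fragments (median 18860269), and values are FPKM, that is, fragments of a gene scaled by its length and by the counted total. Fibroblast genes were high in all groups, with Col1a1 between 4918 and 10708 FPKM and Pdgfra between 92.4 and 475 FPKM over the 24 libraries, while the stellate marker Gfap did not exceed 0.24 FPKM. The 12 epithelial markers summed to 2.03 to 7.59 FPKM in the libraries of control and standard co-culture. In inverse co-culture they summed to 4.83, 49.9 and 10.5 FPKM in replicates 1, 2 and 3 at 24 h. At 72 h they summed to 9.14 to 15.3 FPKM there. Of the 12, 6 had a mean above 1 FPKM in inverse co-culture at 24 h, against 2 in its control. At 72 h these were 4 against 2. Epcam was at most 0.12 and Cdh1 at most 0.95 FPKM in any library. In the standard model, libraries with the same replicate number stood together, and those numbered 1 stood apart from the others. The 10 macrophage markers summed to 535 and 398 FPKM in replicate 2 of standard control and co-culture at 24 h. At 72 h these sums were 1337 and 788 FPKM. Replicates 1 and 3 of the standard groups had 39.1 to 183 FPKM. In the inverse model the numbers did not pair libraries. RNA input was 450 ng in the standard and 120 ng in the inverse model, which cannot be told apart from the model itself. The labels do not say that the 3 libraries of a group came from separate isolations, so the p-values measure the spread between these libraries.

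Of the 5 ligands, Fgf2 had the highest FPKM and 1 of the 2 FGF receptors, Fgfr1, the next highest among the 8 genes, whereas Met was lowest. The mean of the 8 group means was 335 FPKM for Fgf2, 150 FPKM for Fgfr1, 44.8 FPKM for Fgf7, 21.2 FPKM for Hgf, 20.2 FPKM for Fgf18, 18.9 FPKM for Fgf10, 11.2 FPKM for Fgfr2 and 2.58 FPKM for Met. These levels depend on the gene length used. The deposited values had been divided by the mean length of a gene's annotated transcripts, which is 1232 bases for Fgf2 against 6782 bases of joined exons, and 2149 against 10328 bases for Fgfr2. Per joined exon length the means were 60.9 FPKM for Fgf2, 34.2 for Fgfr1, 26.7 for Fgf7, 17.7 for Fgf18, 7.91 for Hgf, 7.12 for Fgf10, 2.34 for Fgfr2 and 1.02 for Met, so Fgf2 and Fgfr1 stayed first and Fgf18 passed Hgf. The ratio of a gene's FPKM between libraries does not depend on the length, whereas log2(FPKM + 0.5) and the filter on low values do.

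Each library counted between 37 and 403 fragments of Met, 231 and 636 of Fgf18, 172 and 1078 of Fgfr2, 370 and 1030 of Fgf10, 518 and 2088 of Hgf, 649 and 2903 of Fgf7, 4618 and 10135 of Fgfr1, and 4294 and 12769 of Fgf2. Met thus rested on the fewest fragments at its lowest. Fragments were counted without regard to strand, and 640 exonic bases of Fgf2 lie opposite exons of Nudt6, so reads there cannot be assigned to 1 of them. Short exonic overlaps also exist for Fgf2 (255 bases, Gm43439, same strand), Hgf (484 bases, Gm43489, same strand), Fgf10 (123 bases, Gm16263, opposite strand), Fgfr1 (164 bases, Gm16159, opposite strand) and Fgfr2 (314 bases, Ctbp2, same strand).

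In GRCm38 the genes lie on different chromosomes: Hgf at chr5:16553495-16620152, Met at chr6:17463800-17573980, Fgf2 at chr3:37348346-37410108, Fgf7 at chr2:126034658-126091185, Fgf10 at chr13:118669791-118792115, Fgfr1 at chr8:25513654-25575718, all on the plus strand, and Fgf18 at chr11:33117430-33147400 and Fgfr2 at chr7:130162451-133123350 on the minus strand. RefSeq promoters of GRCm38.p6 were matched by symbol for 7 of the 8 genes. The 250 bases before the RefSeq start are shown for Hgf and Fgf10, whose standard groups at 24 h did not overlap and which passed there with the replicate block but not without it, and for Fgfr2, which fell in inverse co-culture at 72 h, each 5′ to 3′ on the strand of its gene, with capitals at any match to a motif searched. Hgf has 2 RefSeq starts, and the window of the first lies at chr5:16553245-16553494 and that of the second, not printed, at chr5:16553651-16553900, the Fgf10 window at chr13:118714449-118714698 and the Fgfr2 window at chr7:130266809-130267058.
Hgf: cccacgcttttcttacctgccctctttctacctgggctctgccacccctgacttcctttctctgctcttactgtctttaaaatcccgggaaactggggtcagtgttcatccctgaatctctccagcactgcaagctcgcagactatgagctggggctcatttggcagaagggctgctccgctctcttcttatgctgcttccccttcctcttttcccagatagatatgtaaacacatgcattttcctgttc
Fgf10: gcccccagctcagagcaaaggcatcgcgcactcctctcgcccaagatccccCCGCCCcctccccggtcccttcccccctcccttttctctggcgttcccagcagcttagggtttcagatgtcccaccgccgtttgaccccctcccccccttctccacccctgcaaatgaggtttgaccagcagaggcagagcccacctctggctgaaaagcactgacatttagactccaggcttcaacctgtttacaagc
Fgfr2: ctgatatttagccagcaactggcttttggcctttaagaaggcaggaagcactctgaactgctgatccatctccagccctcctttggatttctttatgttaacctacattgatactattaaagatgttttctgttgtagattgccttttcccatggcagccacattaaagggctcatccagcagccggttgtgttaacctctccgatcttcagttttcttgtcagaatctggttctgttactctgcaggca
6 motifs were searched on both strands, with overlaps between motifs allowed. Fgf10 held 1 GC box, spelled GGGCGG, on its reverse strand, and 32.7% of 32851 RefSeq promoter windows of this length hold one. Both windows of Hgf and the window of Fgfr2 held none of the motifs, which is a statement about these letters in these 250 bases. The AP-1 motif TGANTCA occurs in 6.75% of the windows. The cyclic AMP response element TGACGTCA occurs in 1.55% of them. The STAT motif TTCNNNGAA occurs in 7.02% of all windows. The TEAD motif GGAATG is found in 12.6% and the TATA motif, spelled TATAAA, in 12.4% of them. Guanine and cytosine made up 50.8% of the printed Hgf, 61.2% of the Fgf10 and 44% of the Fgfr2 window, against a median of 52.4% over all windows.

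**Figure D1:**
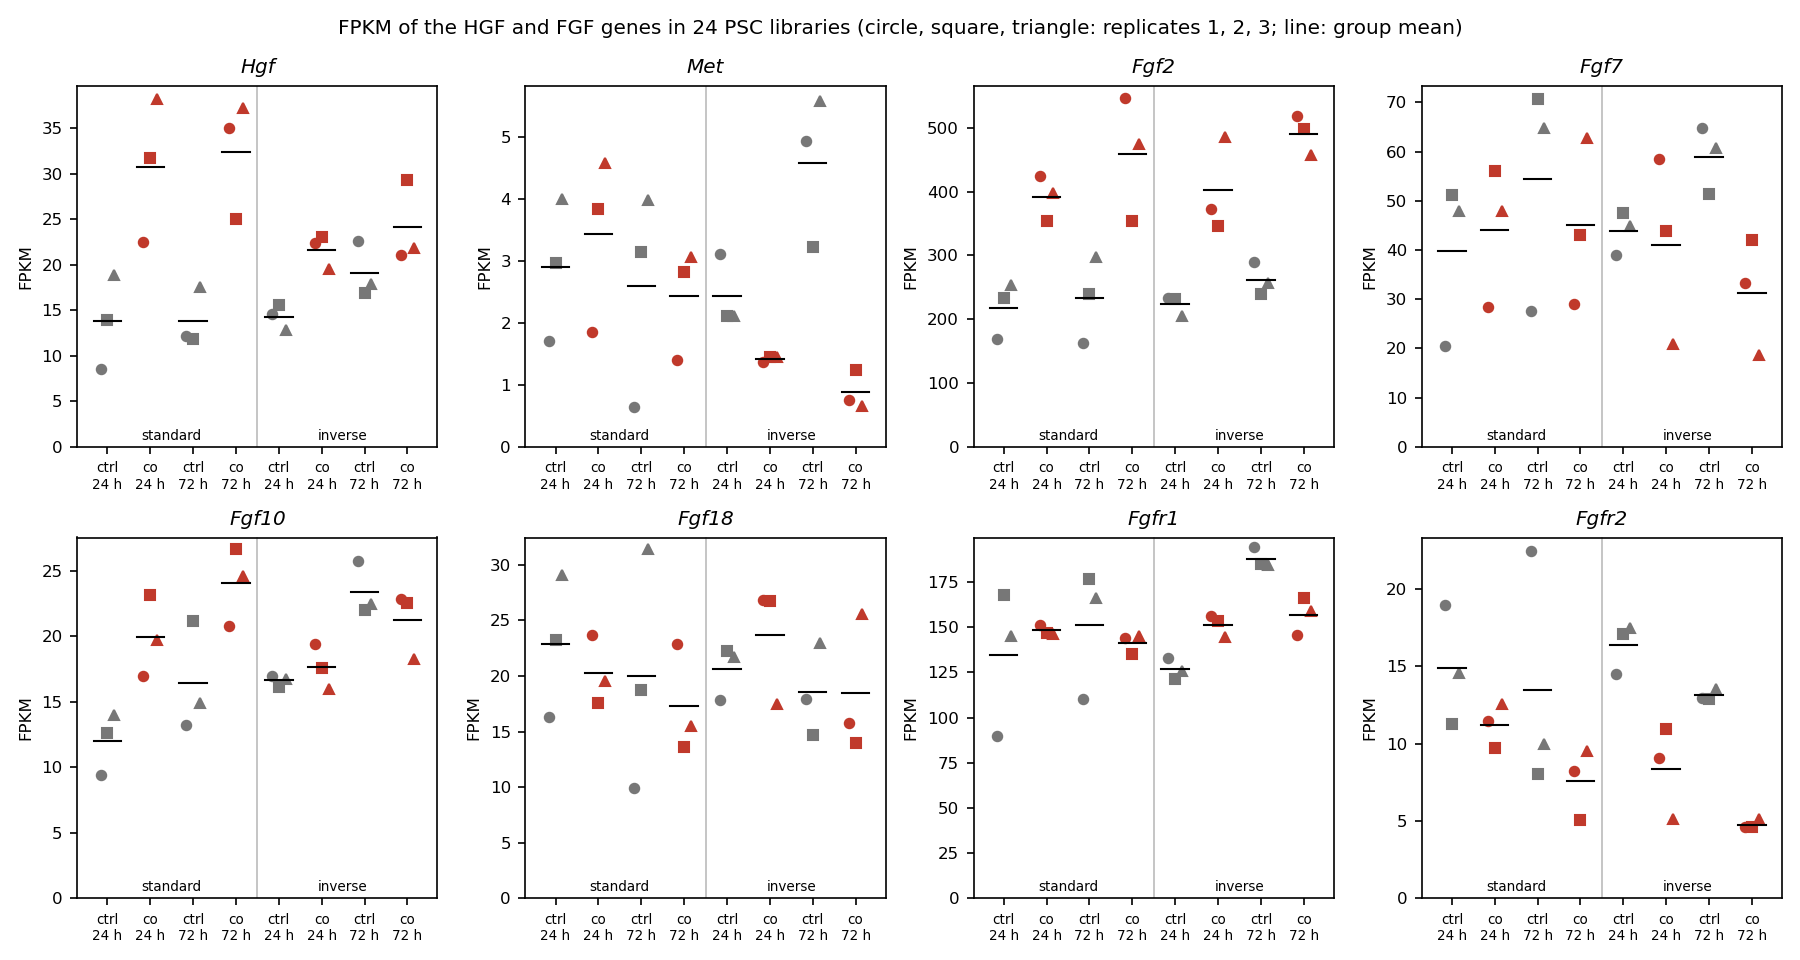
FPKM of the 8 genes in all 24 libraries, with control (ctrl, grey) and co-culture (co, red) at 24 h and 72 h for the standard model left and the inverse model right of the line in each panel; circles, squares and triangles are replicates 1, 2 and 3 and black lines group means. All co-culture libraries of Fgf2 lie above all control libraries, and the group means of Met and Fgfr2 are lowest in inverse co-culture at 72 h.

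Among the ligands, Hgf was higher in co-culture than in control in both models, and its group means were highest in standard co-culture. In standard control PSC at 24 h, Hgf was at 8.51, 13.9 and 18.9 FPKM in replicates 1, 2 and 3, and in co-cultured PSC at 22.4, 31.7 and 38.1 FPKM. All 3 co-culture libraries were above all 3 controls, and replicate 1 was lowest in both groups. At 72 h it was at 12.1, 11.8 and 17.5 FPKM in controls and at 35.01, 25.003 and 37.19 FPKM in co-culture, again without overlap. The log2 fold change was 1.17 (SE 0.33) at 24 h and 1.202 (SE 0.221) at 72 h, or 2.25-fold and 2.30-fold, with a 95% confidence interval of 0.37 to 1.97 and of 0.67 to 1.73.

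By limma, with Benjamini-Hochberg adjustment over all genes tested, Hgf did not pass at either time point (adjusted p = 1.00 at 24 h and 0.616 at 72 h). None of the 8 genes passed in standard co-culture, where 0.0% of 12859 genes at 24 h and 0.0% of 12863 genes at 72 h were called, and 371 and 800 genes had an unadjusted p under 0.05. Of the 8 genes, 3 had an unadjusted p under 0.05 at each time point, namely Hgf, Fgf2 and Fgf10, against 2.89% and 6.22% of all genes, and voom on recovered fragments called 0, whereas limma with all 24 libraries in 1 model called Hgf (adjusted p = 0.0398) and Fgf2 (adjusted p = 0.0394) at 72 h, with 0.35% of genes. With the replicate number as a block, which pairs the libraries of this model, limma called 1.22% of genes at 24 h, and Hgf was among them (adjusted p = 0.0147), as was Fgf10 (adjusted p = 0.0490). The paired log2 differences of Hgf were 1.35, 1.16 and 0.99 at 24 h. They were 1.49, 1.05 and 1.06 at 72 h, where the block called 0.00777% of genes and none of the 8 (Hgf: adjusted p = 0.165). With both libraries numbered 1 left out, Hgf kept a log2 fold change of 1.08 at 24 h and 1.06 at 72 h.

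In the inverse model Hgf was at 14.5, 15.5 and 12.8 FPKM in controls at 24 h and at 22.40, 22.99 and 19.49 FPKM in co-culture. The groups did not overlap, and the log2 fold change was 0.58 (SE 0.13, limma adjusted p = 0.0576). Hgf passed there with libraries scaled by their median gene ratio (adjusted p = 0.0295), voom on recovered fragments (0.0225) or a mean FPKM above 5 (0.0445). It also passed without replicate 3 of co-culture (0.0358). It did not pass with no intensity trend (0.0990), all 24 libraries in 1 model (0.501), no filter or the replicate block. At 72 h the values were 22.6, 16.9 and 17.9 FPKM in controls and 21.1, 29.3 and 21.9 FPKM in co-culture, which overlap, with a log2 fold change of 0.32 (SE 0.17, limma adjusted p = 0.231). In the controls of this model the lowest value at 72 h lay above the highest at 24 h (limma adjusted p = 0.0764). Over the 8 groups, the order of Hgf from low to high was standard control, inverse control, inverse co-culture and standard co-culture, each with 24 h before 72 h. Of these neighbours, the ranges of the inverse controls at 24 h and 72 h were apart and the 6 other pairs overlapped.

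Fgf2, a ligand with broad receptor use that is stored on heparan sulfate, was higher in every co-culture group than in its control. Fgf2 was at 169, 233 and 253 FPKM in standard controls at 24 h and at 424, 353 and 398 FPKM in co-culture, and at 72 h at 163, 240 and 298 against 546, 353 and 475 FPKM. In the inverse model it was at 233, 232 and 206 FPKM in controls at 24 h and at 374, 347 and 485 FPKM in co-culture, and at 72 h at 289, 240 and 257 against 518, 498 and 457 FPKM. The lowest of the 12 co-culture libraries (347 FPKM) lay above the highest of the 12 controls (298 FPKM). Its log2 fold change was 0.86 (SE 0.19) and 0.99 (SE 0.27) in the standard model at 24 h and 72 h, and 0.83 (SE 0.13) and 0.91 (SE 0.11) in the inverse model.

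Fgf2 rose by limma in inverse co-culture, at 24 h (adjusted p = 0.0187) and at 72 h (adjusted p = 0.0058). It was the 1 member called among the 8 at 24 h, where 2.47% of 12827 genes were called (1.08% up and 1.39% down), and 1 of 3 at 72 h, where 12.8% of 13066 genes were called (3.27% up and 9.57% down). These calls comprised 139 up and 178 down at 24 h, then 427 up and 1251 down at 72 h. When each library was instead scaled by its median gene ratio to the geometric mean of the libraries, they comprised 178 up and 145 down, then 704 up and 697 down. That scaling moved the median log2 fold change of all genes at 72 h from −0.16 to −0.02. The call at 24 h was lost with no filter (adjusted p = 0.0879), no intensity trend (0.0713), the replicate block (0.0725) or all 24 libraries in 1 model (0.105). It was also lost without any 1 of the 3 controls, with adjusted p from 0.0734 to 0.0991, and held without any co-culture library, whereas the call at 72 h held without each library in turn (highest adjusted p 0.0392). Without replicate 2 of inverse co-culture at 24 h, the library with the highest epithelial marker sum, its log2 fold change was 0.93 (adjusted p = 0.0435). It did not pass in the standard model (adjusted p = 1.00 and 0.722, and 0.0546 and 0.354 with the block). At 24 h its paired log2 differences were 1.33, 0.60 and 0.65, at 72 h 1.74, 0.56 and 0.67, so replicate 1 had the largest in both, and the means without both libraries numbered 1 were 0.63 and 0.61.

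Fgf10, an FGFR2 ligand of mesenchyme, was at 9.40, 12.64 and 13.99 FPKM in standard controls at 24 h and at 17.02, 23.15 and 19.74 FPKM in co-culture. The groups did not overlap, and the log2 fold change was 0.72 (SE 0.20, limma adjusted p = 1.00, and 0.0490 with the block). At 72 h it was at 13.22, 21.20 and 14.95 FPKM in controls and at 20.8, 26.7 and 24.6 FPKM in co-culture (log2 fold change 0.55, SE 0.20, limma adjusted p = 0.759). The ranges overlapped, although each co-culture library was above the control with its number, by 0.64, 0.33 and 0.70 on the log2 scale. In the inverse model Fgf10 was at 16.98, 16.15 and 16.78 FPKM in controls and 19.5, 17.6 and 16.0 FPKM in co-culture at 24 h, and at 25.75, 22.02 and 22.44 against 22.9, 22.6 and 18.3 FPKM at 72 h. Its log2 fold changes there were 0.08 (95% confidence interval from −0.19 to 0.36) and −0.14 (from −0.44 to 0.16), and neither passed by limma.

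**Figure D2:**
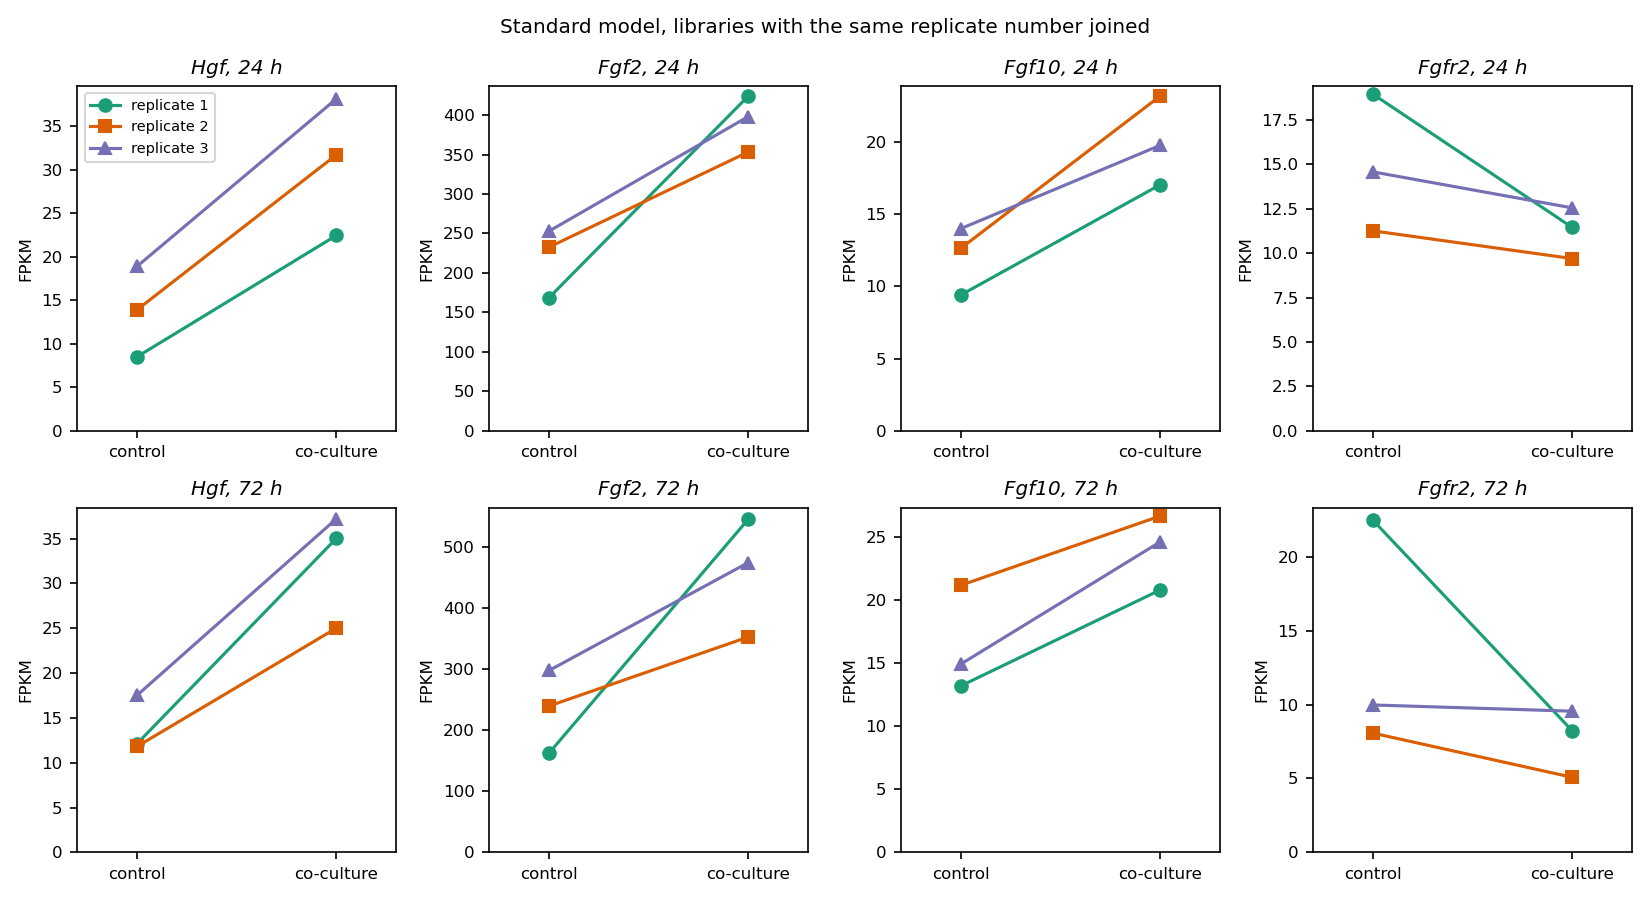
FPKM of Hgf, Fgf2, Fgf10 and Fgfr2 in the standard model at 24 h and 72 h, with lines joining the control and co-culture library of the same replicate number. Hgf, Fgf2 and Fgf10 are higher and Fgfr2 is lower in co-culture in each of the 3 pairs at both times, and replicate 1 has the steepest line for Fgf2 and Fgfr2.

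Counting the groups without overlap, 3 of the 8 genes (Hgf, Fgf2 and Fgf10) were higher in standard co-culture at 24 h, against 3.35% of all genes tested, and 2 (Hgf and Fgf2) at 72 h, against 3.36%. None of the 8 was lower without overlap in that model, against 4.38% and 9.78% of genes. The median log2 fold change over the 8 genes was 0.20 at 24 h and 0.01 at 72 h, and over all genes tested −0.01 and −0.09.

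Fgf7, also known as keratinocyte growth factor, differed more between replicates than between culture forms in the standard model. It was at 20.5, 51.3 and 47.9 FPKM in standard controls at 24 h against 28.4, 56.0 and 48.0 FPKM in co-culture, and at 27.6, 70.7 and 64.7 against 29.1, 43.1 and 62.8 FPKM at 72 h, so replicate 1 was lowest in each of these 4 groups. In the inverse model at 24 h it was at 39.0, 47.5 and 44.9 FPKM in controls and 58.5, 43.9 and 20.8 FPKM in co-culture, with the co-culture libraries on both sides of the controls. At 72 h it was at 64.8, 51.4 and 60.7 FPKM in controls and 33.3, 42.1 and 18.6 FPKM in co-culture, with all 3 co-culture libraries below the controls. The log2 fold change was −0.97 (SE 0.27), and it did not pass by limma (adjusted p = 0.0535). It passed with voom on recovered fragments (0.0280) and over genes with a mean FPKM above 5 (0.0477). It also passed without replicate 2 (0.0222) or 3 (0.0306) of co-culture. With median scaling (0.0951), no intensity trend (0.0873) or all 24 libraries in 1 model (0.165) it did not pass. The summed adipocyte markers, given beside Met, had the same replicate order as Fgf7 in inverse co-culture at both times. The same held for the summed macrophage markers, at 86.5, 75.8 and 26.0 FPKM at 24 h and 79.8, 84.5 and 55.5 FPKM at 72 h. Both sums were also lowest in replicate 1 of each standard group, and their part in the result was not tested.

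Fgf18, a ligand of the mesenchymal receptor forms, passed in no comparison. Its 8 group means ran from 17.3 to 23.7 FPKM, a 1.37-fold span, and the ranges of all 7 neighbouring groups overlapped. The widest group was the standard control at 72 h, with 9.96, 18.7 and 31.4 FPKM. The 95% confidence intervals of the log2 fold change were from −0.72 to 0.43 and from −1.10 to 0.91 in the standard model at 24 h and 72 h, and from −0.24 to 0.59 and from −0.61 to 0.54 in the inverse model, so changes within these bounds could not be told from none.

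**Figure D3:**
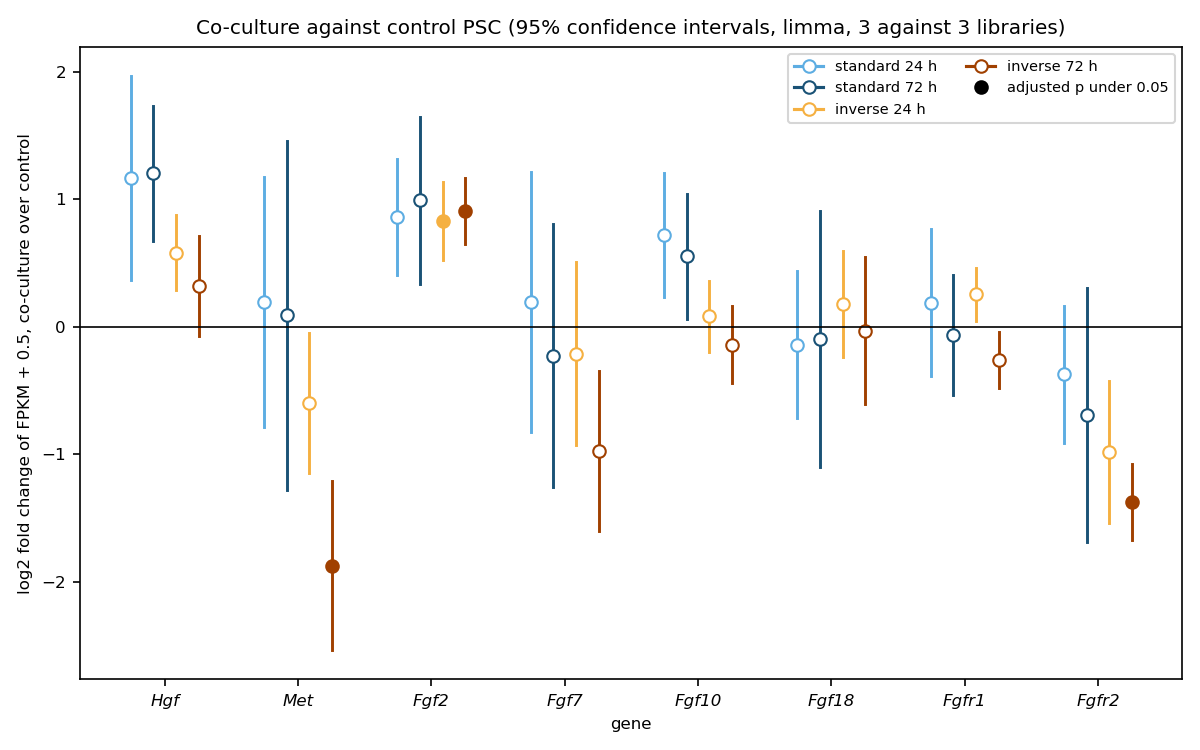
Log2 fold change of each gene in co-cultured against control PSC, on the log2(FPKM + 0.5) scale, with 95% confidence intervals and filled circles for a limma adjusted p under 0.05. Fgf2 lies between 0.83 and 0.99 in all 4 comparisons, and Met and Fgfr2 reach −1.87 and −1.37 in the inverse model at 72 h.

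Met, the receptor of HGF, was lower in inverse co-culture, and in standard co-culture its groups overlapped. In inverse controls it was at 3.110, 2.105 and 2.105 FPKM at 24 h, and in co-culture at 1.37, 1.44 and 1.46 FPKM. At 72 h it was at 4.93, 3.23 and 5.58 FPKM in controls and at 0.759, 1.23 and 0.654 FPKM in co-culture, which is 37 to 65 fragments per library against 172 to 403. The groups did not overlap at either time. Met fell by 1.87 on the log2 scale at 72 h (SE 0.29, limma adjusted p = 0.0089), and the means of FPKM without the added 0.5 differed 5.19-fold. Since 2 of the 3 co-culture libraries were under 1 FPKM, Met entered the test through its controls, and with no filter it was also called (adjusted p = 0.0337). At 24 h its log2 fold change was −0.60 (SE 0.24, limma adjusted p = 0.291). The call at 72 h was lost without replicate 3 of the controls (log2 fold change −1.73, adjusted p = 0.0562) and held without each of the 5 other libraries.

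Met in the standard model was at 1.71, 2.97 and 4.01 FPKM in controls and 1.86, 3.85 and 4.58 FPKM in co-culture at 24 h, and at 0.636, 3.15 and 3.98 against 1.39, 2.82 and 3.06 FPKM at 72 h. Replicate 1 was lowest in all 4 groups, and the spread between replicates exceeded that between culture forms. At 24 h its log2 fold change was 0.20 (95% confidence interval from −0.78 to 1.17), and at 72 h it was 0.09 (from −1.28 to 1.46). The difference between the effects of the inverse and the standard model at 72 h was −1.96 (SE 0.59), with an unadjusted p of 0.0037 and an adjusted p of 0.997 by limma over 14452 genes. With the replicate block, whose numbers pair only the standard libraries, it was called (adjusted p = 0.0402), among 16 of the 14452 genes.

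The sums of adipocyte and macrophage marker genes were lower in inverse co-culture than in control at 72 h, as was Met. The 6 adipocyte markers, all above an FPKM of 0 in each group, summed to 839, 398 and 749 FPKM in replicates 1, 2 and 3 of the inverse control at 72 h and to 55.10, 97.33 and 22.99 FPKM in co-culture, and in the standard model replicate 1 was lowest in this sum in all 4 groups, as for Met. At 24 h they summed to 155, 156 and 239 FPKM in inverse controls and to 184, 117 and 81.4 FPKM in co-culture, which overlap. The 10 macrophage markers summed to 128 to 251 FPKM in inverse controls and to 55.5 to 84.5 FPKM in co-culture at 72 h. At 24 h they summed to 74.96 to 83.3 FPKM in inverse controls and to 26.0 to 86.5 FPKM in co-culture, which overlap. The part of both marker sums in the result for Met was not tested. Fewer cells of a type and less RNA per cell cannot be told apart in these bulk libraries. The epithelial marker sum was higher in inverse co-culture than in control, whereas Met was lower.

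**Figure D4:**
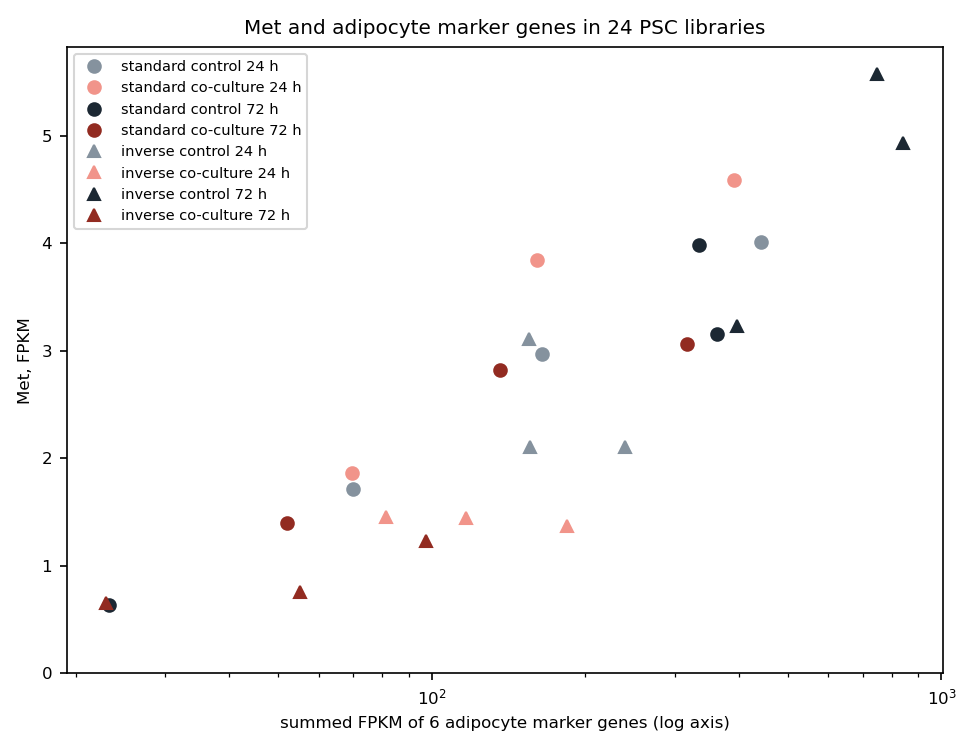
Met (FPKM) against the summed FPKM of 6 adipocyte marker genes (log axis) in 24 libraries, with circles for the standard and triangles for the inverse model. The inverse controls at 72 h lie at 3.23 to 5.58 FPKM of Met with marker sums of 398 to 839 FPKM, and inverse co-culture at 72 h at 0.654 to 1.23 FPKM with sums of 22.99 to 97.33 FPKM.

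Fgfr2, the receptor whose epithelial form binds FGF7 and FGF10, was lower in inverse co-culture. Fgfr2 was at 14.5, 17.1 and 17.5 FPKM in inverse controls at 24 h and 9.06, 10.9 and 5.14 FPKM in co-culture. At 72 h it was at 12.9, 12.9 and 13.5 FPKM in controls and 4.63, 4.60 and 5.10 FPKM in co-culture, with little spread in either group and no overlap. It fell by 1.37 on the log2 scale at 72 h (SE 0.13, limma adjusted p = 0.0034), a 2.75-fold difference of the mean FPKM, and this call held without each library in turn (highest adjusted p 0.0264). At 24 h the log2 fold change was −0.98 (SE 0.24) and did not pass (limma adjusted p = 0.0849). Without replicate 3 of inverse co-culture, the lowest library, it was −0.69 and passed (adjusted p = 0.0471). With voom it passed with all 6 libraries (−0.99, adjusted p = 0.0252). It did not pass with median scaling (0.0802), no intensity trend (0.152) or all 24 libraries in 1 model (0.268).

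Standard cultures had Fgfr2 at 18.9, 11.3 and 14.6 FPKM in controls and 11.4, 9.70 and 12.6 FPKM in co-culture at 24 h, and at 22.5, 8.06 and 9.97 against 8.22, 5.08 and 9.55 FPKM at 72 h. It was lower in co-culture in 3 of 3 pairs at each time, although the ranges overlapped. The log2 fold change was −0.37 (SE 0.22) and −0.69 (SE 0.41) and did not pass by limma (adjusted p = 1.00 and 0.799, and 0.268 and 0.463 with the block). The paired log2 differences at 72 h were −1.40, −0.62 and −0.06, the first of which comes from the control with 22.5 FPKM. Without both libraries numbered 1, the log2 fold change at 72 h was −0.34. The inverse minus standard difference at 72 h was −0.68 (SE 0.43, limma adjusted p = 0.997).

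Fgfr1, the FGF receptor with the highest FPKM in these cells, moved little and in both directions in the inverse model. It was at 133, 121 and 126 FPKM in inverse controls at 24 h and 156, 153 and 144 FPKM in co-culture (log2 fold change 0.25, SE 0.09, limma adjusted p = 0.221). At 72 h it was at 194, 185 and 185 FPKM in controls and 146, 166 and 159 FPKM in co-culture (log2 fold change −0.26, SE 0.09, limma adjusted p = 0.101). The groups did not overlap at either time, but neither difference passed, and at 72 h it was −0.11 with the median scaling. The change of its effect from 24 h to 72 h was −0.52 (SE 0.12, unadjusted p = 0.0009, limma adjusted p = 0.175). In the standard model it was at 90.1, 168 and 145 FPKM in controls and 151, 147 and 146 FPKM in co-culture at 24 h, and at 110, 177 and 166 against 144, 135 and 145 FPKM at 72 h, so the co-culture libraries lay closer together than the controls at both times.

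In inverse co-culture, 3 of the 8 genes (Hgf, Fgf2 and Fgfr1) were higher without overlap at 24 h, against 7.38% of all genes tested, and 2 (Met and Fgfr2) were lower, against 13.8%. At 72 h, 1 gene (Fgf2) was higher without overlap, against 9.53%, and 4 (Met, Fgf7, Fgfr1 and Fgfr2) were lower, against 28.8% of all genes. The median log2 fold change over the 8 genes was 0.13 and −0.20, and over all genes tested −0.06 and −0.16.

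Without the block, no difference of the co-culture effect between the models or between the time points passed by limma for any of the 8 genes. In these comparisons 0.0% of the genes tested passed. At an unadjusted p under 0.05, which 1.26% of all genes reached at 24 h and 3.47% at 72 h, the differences between the models were those of Fgf10 at 24 h (−0.64, SE 0.24) and of Hgf (−0.88, SE 0.34), Met (−1.96, SE 0.59) and Fgf10 (−0.69, SE 0.24) at 72 h, each lower in the inverse model. Those between the time points were Met (−1.27, SE 0.36) and Fgfr1 in the inverse model, where 10.7% of all genes reached that limit, and none in the standard model (1.03% of genes). Voom on recovered fragments called 0 of the 8 in these 4 comparisons.

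The control PSC were compared over time to see how far the genes moved without KPC cells. In inverse controls 3 of the 8 genes were higher at 72 h than at 24 h by limma, where 19.2% of 13092 genes were called, 10.2% upward. In the same controls the adipocyte marker sum was 155 to 239 FPKM at 24 h against 398 to 839 FPKM at 72 h, and the macrophage sum was 74.96 to 83.3 FPKM against 128 to 251 FPKM. Their part in the result was not tested. Fgfr1 rose with a log2 fold change of 0.57 (SE 0.08, adjusted p = 0.0032), Fgf10 with 0.48 (SE 0.11, adjusted p = 0.0160) and Fgf7 with 0.42 (SE 0.12, adjusted p = 0.0388). By limma with all 24 libraries in 1 model these calls were lost (adjusted p = 0.0990 for Fgfr1, 0.152 for Fgf10 and 0.600 for Fgf7). Without the intensity trend that of Fgf7 was lost (0.0790). The call of Fgf7 held only without replicate 2 at 72 h and was lost without any 1 of the 5 other libraries (adjusted p from 0.0646 to 0.118), and that of Fgf10 was lost without replicate 1 at 72 h (0.0597) or replicate 2 at 24 h (0.0633). Met had a log2 fold change of 0.78 (SE 0.24, adjusted p = 0.0555, and 0.0151 with voom) and Fgfr2 one of −0.30 (SE 0.12, adjusted p = 0.0989). Of the 8 genes 6 were higher and 1 lower without overlap, against 22.8% and 16.9% of all genes.

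In standard controls none of the 8 genes differed between 24 h and 72 h by limma, with 0.0% of 12963 genes called and none of the 8 at an unadjusted p under 0.05. Between the controls of both models none passed at 24 h (0.0% of 12903 genes) or 72 h (0.0% of 13106 genes), where 1 of the 8, Fgf10, had an unadjusted p under 0.05 at each time, against 1.74% and 6.18% of all genes. Fgf10 was higher in inverse than in standard controls by 0.47 (SE 0.18) and 0.52 (SE 0.19) on the log2 scale (adjusted p = 1.00 and 0.800), and its groups did not overlap. It was the 1 member of 8 that was higher without overlap at 24 h, against 4.65% of genes, and 1 of 2 at 72 h, with Fgfr1 (184.7 to 194.4 against 110.3 to 176.6 FPKM), against 11.1%. Voom on recovered fragments called 0 of the 8 in these 3 comparisons.

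Other genes of the pathways were taken from 6 lists. Of 22 FGF ligands 8 passed the filter on low values, and 14 had a group mean under 1 FPKM throughout. In inverse co-culture Fgf2 rose and Fgf13, an intracellular relative that does not act through the receptors, fell at 24 h from 3.55 to 1.24 FPKM (log2 fold change −1.25, SE 0.27, adjusted p = 0.0497). At 72 h Fgf13 had means of 2.45 FPKM in controls and 0.458 FPKM in co-culture, and it passed the filter only through the controls, so no test is given. The call of Fgf13 at 24 h was lost with the median scaling, with no filter and with the replicate block. Of all genes tested in this model, 1.08% rose and 1.39% fell at 24 h, and 3.27% rose and 9.57% fell at 72 h, which are the shares to set beside each count below. The other ligands tested did not pass at either time. In standard co-culture none passed, and with the block Fgf10 rose and Fgf9 fell at 24 h.

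Of 9 FGF receptors and co-receptors, 6 were tested in the inverse model at 72 h, and Fgfr2 and Fgfrl1, a receptor that lacks the kinase domain, fell, against 9.57% of all genes that fell, and none rose. The sixth gene, Klb, the co-receptor of the endocrine FGF, passed the filter only through the controls in which it was high, so it is given by its values. The adipocyte marker sum was lower in the same co-culture libraries, as given beside Met, and its part here was not tested. Fgfrl1 was at 140 to 173 FPKM in controls and 43.2 to 68.2 FPKM in co-culture (log2 fold change −1.52, SE 0.17, adjusted p = 0.0046). Klb was at 1.16 to 2.09 FPKM in controls and listed at 0 in all 3 co-culture libraries. None of the 5 tested at 24 h passed, and in the standard model none of the 5 did so at either time, with medians of 0.19 and −0.50.

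Of 10 genes of HGF activation only 3 were tested, the plasminogen activators Plau and Plat and the urokinase receptor Plaur, while Hgfac, St14, Spint1, Spint2, Plg and F12 stayed under 1 FPKM in each group mean. In inverse co-culture Plat, the tissue-type activator, rose from 47.1 to 103 FPKM at the earlier time (log2 fold change 1.11, SE 0.11, adjusted p = 0.0046) and from 53.6 to 104 FPKM at the later one (0.93, SE 0.14, adjusted p = 0.0084). Plaur rose at 72 h from 21.01 to 38.39 FPKM (0.84, SE 0.13, adjusted p = 0.0104). Of 15 genes of the MET family and its adaptors, 14 were tested. At 72 h Met and Ranbp9, a MET-binding scaffold protein, fell and none rose, against 9.57% of all genes that fell. The median was −0.13 against −0.16 over all genes. Met entered this test through its controls, in which it was high, as stated above. Ranbp9 went from 55.9 to 37.6 FPKM (−0.57, SE 0.13, adjusted p = 0.0281), a call lost with the median scaling, with no filter and with the replicate block. In this model the epithelial marker sum was 4.83, 49.9 and 10.5 FPKM in co-culture at 24 h against 2.03 to 4.49 FPKM in control. At 72 h it was 9.14 to 15.3 against 4.05 to 7.59 FPKM, and the adipocyte and macrophage sums were lower in co-culture. The part of these sums in the changes was not tested.

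Of 19 FGF adaptors and feedback genes, 18 were tested in the inverse model at 72 h, and 6 rose and none fell, against 3.27% of all genes that rose, with a median log2 fold change of 0.46 against −0.16 over all genes. The largest changes were those of the transcription factor Etv4, from 11.1 to 26.0 FPKM (1.24, SE 0.22, adjusted p = 0.0138), and of the ERK phosphatase Dusp6, from 8.57 to 19.4 FPKM (1.15, SE 0.20, adjusted p = 0.0138). The inhibitor Spry2 went from 36.6 to 67.5 FPKM (0.86, SE 0.16, adjusted p = 0.0166), and Etv5, Spred3 and Spred2 rose by 0.69, 0.63 and 0.51 on the log2 scale. With no filter the calls of Etv5 and Spred2 were lost, and with the replicate block those of Spred3 and Spred2. These genes also answer to other inputs of the MAP kinase pathway. In the same libraries the epithelial marker sum was 9.14 to 15.3 FPKM in co-culture against 4.05 to 7.59 FPKM in control, and the adipocyte and macrophage sums were lower in co-culture, as given beside Met. Their part in these changes was not tested. Spry4, of the same family as Spry2, had a log2 fold change of −0.53 (SE 0.23, adjusted p = 0.156). At 24 h 1 of 17 passed, the phosphatase Dusp5, from 3.77 to 8.95 FPKM (1.14, SE 0.17, adjusted p = 0.0159), against 1.08% of all genes that rose, and the median was 0.30. This call was lost with no filter and with the replicate block. None of 17 passed in the standard model (medians 0.30 and 0.22), and with the block Dusp5 passed at 24 h.

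Of 16 heparan sulfate enzymes, 14 were tested, and in inverse co-culture 2 rose at 24 h (1.08% of all genes), and 2 rose and 2 fell at 72 h (3.27% and 9.57% of all genes). In inverse co-culture Sulf1, which removes 6-O-sulfate from heparan sulfate outside the cell, rose at both times, at 24 h from 90.3 to 176 FPKM (0.96, SE 0.11, adjusted p = 0.0072), at 72 h from 138 to 215 FPKM (0.64, SE 0.14, adjusted p = 0.0282). Sulf2, of the same function, fell at 72 h from 299.96 to 111.39 FPKM (−1.50, SE 0.27, adjusted p = 0.0153). The sulfotransferase Hs6st1 rose at 72 h from 16.5 to 29.6 FPKM (0.81, SE 0.12, adjusted p = 0.0084), Extl3 fell (−0.56, SE 0.10, adjusted p = 0.0126), and Hs3st1 rose at 24 h from 2.21 to 7.11 FPKM (1.52, SE 0.23, adjusted p = 0.0159). The calls of Hs3st1 at 24 h, with no filter or the replicate block, and of Sulf1 at 72 h, with no filter, were lost. None passed in the standard model, and with the block Hs3st1 and Sulf1 rose at 24 h. In the inverse model at 72 h the epithelial marker sum was higher and the adipocyte and macrophage sums were lower in co-culture, as given above. Their part in the changes of these enzymes was not tested.

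**Figure D5:**
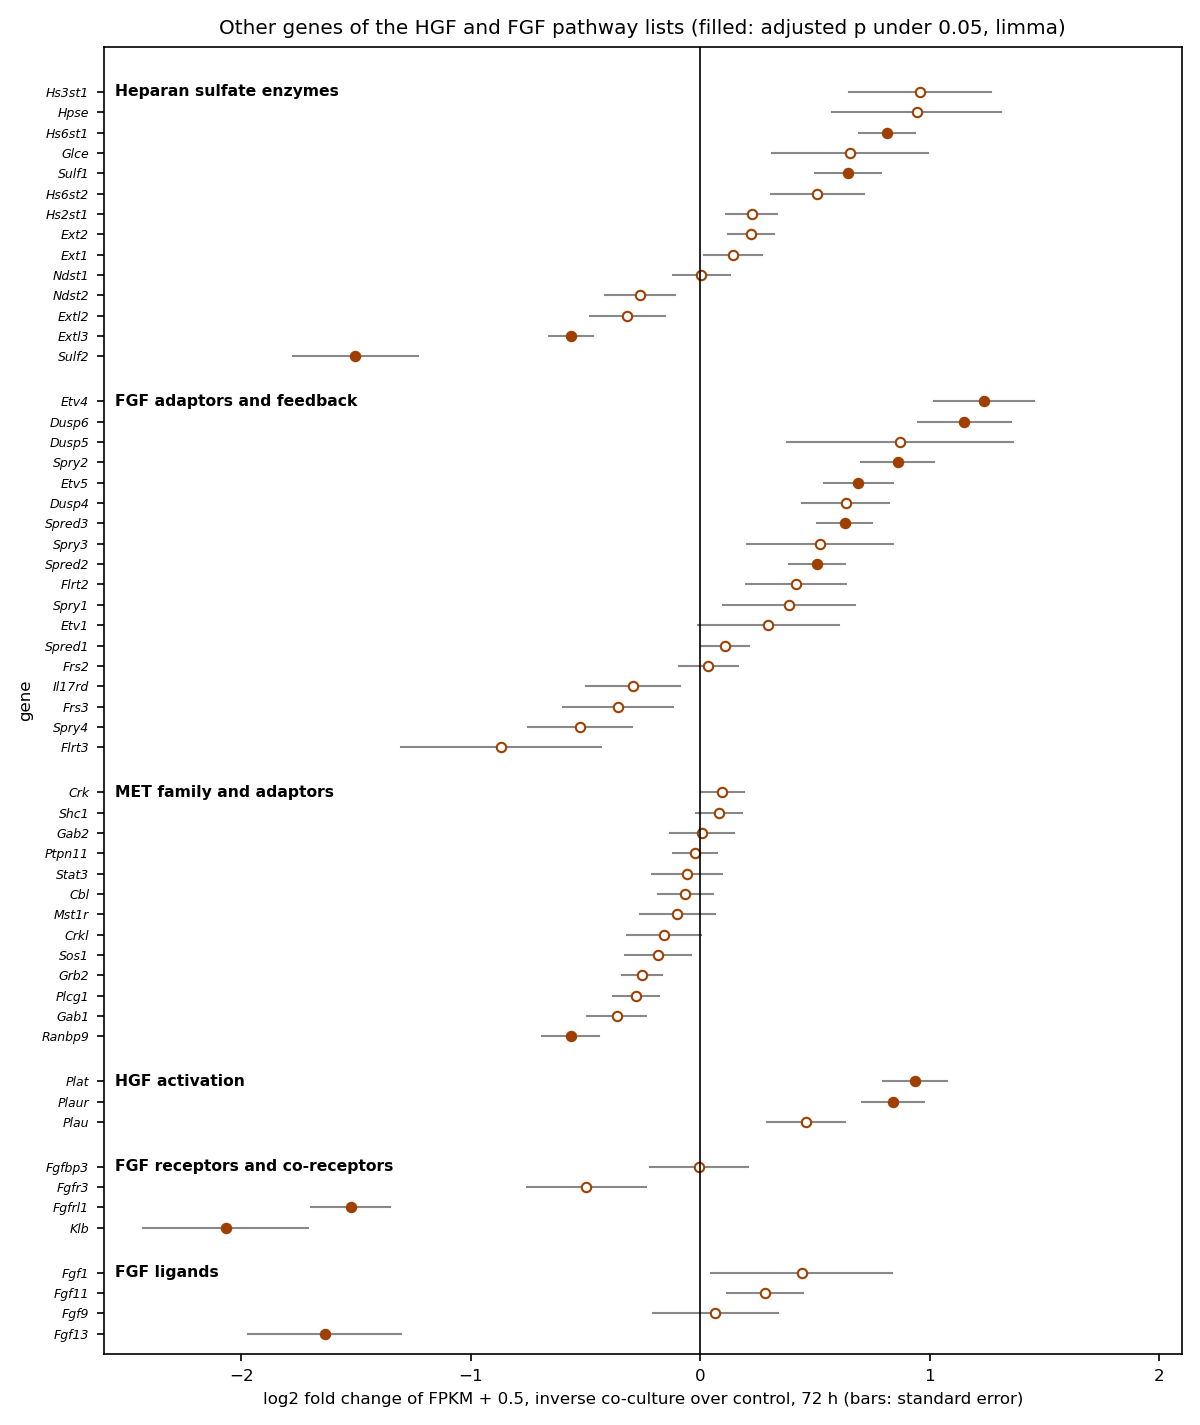
Log2 fold change (on the log2(FPKM + 0.5) scale, bars standard errors) of the other genes tested from 6 pathway lists in inverse co-culture against control at 72 h, with filled circles for a limma adjusted p under 0.05. Feedback genes such as Etv4 (1.24) and Dusp6 (1.15) lie to the right, and Klb, Fgf13, Fgfrl1 (−1.52) and Sulf2 (−1.50) to the left. Klb and Fgf13 passed the filter only through the controls, so their symbols are not read as a test.

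Across the 24 libraries, Pearson correlations of log2(FPKM + 0.5) are given as a description, since the libraries share groups and replicate numbers. Among the 28 pairs of the 8 genes, Hgf and Fgf2 had the highest coefficient (0.83), followed by Met and Fgf7 (0.71) and Hgf and Fgf10 (0.67), and Fgf2 and Fgfr2 had the lowest (−0.80). Among 14452 genes, the pattern most like that of Hgf was found for Kitl (0.88), Tgfbr1 (0.87) and Map4k4 (0.86), and that most like Fgf2 for Tgfbr1 (0.96), Ptprj (0.91) and Chst11 (0.90). Kitl encodes the ligand of the KIT receptor and Tgfbr1 a TGF-β receptor. For Met these were Cd36 (0.93), a fatty acid transporter, and Serpina3c (0.91), for Fgfr2 Slc6a8 (0.94), Susd2 (0.94) and Cemip (0.92), and for Fgf7 Hacd2 (0.96) and Fam84a (0.94). For Fgfr1 they were Ago1 (0.93), Fam117a (0.88) and Abl1 (0.87), for Fgf10 Gprc5b (0.86), Grasp (0.84) and Il1r1 (0.84), and for Fgf18 Sh3bp5 (0.79), Coq2 (0.77) and Stbd1 (0.76).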

How the data were processed

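The authors aligned the reads with HISAT2 2.0.5 to GRCm38.p6, counted fragments with featureCounts 1.5.0-p3 and deposited FPKM of 53801 genes in 24 libraries, which had no further scaling between libraries. The release of their gene annotation is not given in the sources used here. Their DESeq2 1.20.0 calls were not used. Genes were matched to GENCODE M21, which held 53706 of them. Undoing the scaling with the mean length of a gene's annotated transcripts and the library total turned the FPKM of 27228 of 28892 genes above 0 (94.2%) into whole fragments in all libraries, within 0.02 of a whole number, including the 8 genes described.

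The test was that of limma 3.58.1 in R 4.3.3 (moderated test with intensity trend, two-sided) on log2(FPKM + 0.5), over genes above an FPKM of 1 in at least 3 libraries compared, with Benjamini-Hochberg adjustment over all of them and a limit of 0.05. The scale understates changes of low genes. Co-cultures were compared with their controls over 6 libraries, models over 24 and time points over 12. An exact permutation test of 3 against 3 libraries cannot go below 0.1, so none is given. Same-numbered libraries of the standard model deviated together from their group means (correlation over genes 0.82, 0.76 and 0.55 at 24 h and 0.60, 0.48 and 0.48 at 72 h), so the replicate number was also used as a block. The fits were first run on simulated data with each library drawn independently. Such data lack the pairing of the standard libraries, so they do not show how the fits behave under it. Members and lists were chosen with earlier results of these data known, and all 8 members, the list genes that passed and, of the 3 most correlated genes of each member, those that may be printed are named; some items are not reported here. Alternatives were other pseudocounts (1 and 0.1), no filter, a mean FPKM above 5, median scaling, the block, no trend, more libraries in the model, voom on recovered fragments and leaving out each library. Leaving out both libraries numbered 1 was added after the data were seen. Python 3.11.15 with pandas 2.3.3 and matplotlib 3.10.9 made tables and plots.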

Additional observations from a re-analysis of the deposited data

Results flagged for a closer look

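Met at 24 h was singled out because it was higher in co-culture than in the same-numbered control in 3 of 3 pairs of the standard model and lower in 3 of 3 pairs of the inverse model, with log2 fold changes of 0.20 and −0.60. By limma over all 24 libraries the difference between the models was −0.79 (SE 0.59, unadjusted p = 0.197, adjusted p = 1.00), so it was not shown, and the numbers of the inverse model do not pair its libraries.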

How the results depend on the processing

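The number of the 8 genes called in inverse co-culture at 24 h was 1, with 2.47% of all genes called. It became 0 with no filter (0.208% of genes), no intensity trend (0.764%), the replicate block (0.686%) or all 24 libraries in 1 model (0.0936%), 2 with a mean FPKM above 5 (3.56%) or median scaling (2.52%), and 3 with voom (3.99%). Leaving out 1 library gave 0 to 3 there (0.531% to 3.26% of genes), 2 to 4 at 72 h (2.9% to 12.7%; 3 with all libraries) and 1 to 4 between inverse controls over time (9.64% to 18.5%; 3 with all), which became 0 with all 24 libraries (1.8%) and 5 with voom (23.4%). In the standard model the replicate block gave 2 calls at 24 h (Hgf and Fgf10), and all 24 libraries gave 2 at 72 h (Hgf, adjusted p = 0.0398, and Fgf2, adjusted p = 0.0394). For the difference between the models at 72 h the block gave 1 call, Met (−1.96, adjusted p = 0.0402), among 16 of 14452 genes, although the numbers pair only the standard libraries. In the inverse model the block also ended the call of Fgf2 at 24 h (adjusted p = 0.0725) and that of Fgf7 between controls (adjusted p = 0.0805), and it changed no other call of the 8 genes.

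Median scaling reversed the sign of Fgf18 (0.00028) and Fgfr1 (0.031) in standard co-culture at 72 h and of Fgf10 (0.0072) and Fgf18 (0.11) in inverse co-culture at 72 h, and leaving out both libraries numbered 1 reversed Fgfr1 at 24 h (−0.090) and Met at 72 h (−0.23) in the standard model. Leaving out 1 library reversed the sign of Met (−0.082 to 0.53), Fgf7 (−0.22 to 0.48), Fgf18 (−0.36 to 0.045) and Fgfr1 (−0.074 to 0.37) in the standard model at 24 h, of Met (−0.52 to 0.47), Fgf7 (−0.65 to 0.050), Fgf18 (−0.51 to 0.30) and Fgfr1 (−0.28 to 0.062) at 72 h, and in the inverse model of Fgf7 at 24 h (−0.52 to 0.21) and Fgf18 at 72 h (−0.29 to 0.14). None of these had passed the limit. The causes were not tested. Met rested on 37 to 403 fragments per library, which limits the precision of its low values.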
